A study of Mus musculus with 8 samples.

Results

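Transcripts of 9 histone genes that lie outside the histone gene clusters were compared between the Nrp-1+ and the Nrp-1- subset of iTreg. These are the linker histone genes H1fx and H1f0, the H2A variant genes H2afx, H2afz, H2afv, H2afy and H2afj, and the H3.3 genes H3f3a and H3f3b. They were taken by symbol from 23361 genes, and all 9 passed the filter (mean FPKM of 1 or more over the 8 libraries) that left 10467 genes to be tested. The set was selected with the difference between these same 8 libraries in view. The levels and changes of the 9 genes are therefore given as a description. Calls for them from the fit across all genes are reported but are no test, since the same values guided the choice. FPKM is a fragment count divided by transcript length and by the number of mapped fragments, which allows levels to be compared between genes.

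The cells came from wild-type Foxp3-RFP reporter mice on the B6 background, aged 7 to 8 weeks by the study's methods. Naïve CD44low CD62Lhigh CD4+ T cells were stimulated with anti-CD3/CD28 beads, TGF-β at 2 ng/ml and IL-2, which the labels put at 50 U/ml, so every library carries the same reporter and the same treatment. Live CD4+ Foxp3-RFP+ cells, called iTreg because they acquired Foxp3 in culture, were then parted by surface neuropilin-1, which gave 4 libraries of Nrp-1+ cells and 4 of Nrp-1- cells. The labels give 3 days of culture in one field and day 5 in another, and they name a different library kit from the paper. The labels call the libraries biological replicates without saying whether cultures or animals differed, so the errors and p-values measure only the spread between these libraries.

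Nrp1, the gene of the sorted protein, averaged 21.5 ± 0.709 FPKM in the 4 Nrp-1+ libraries against 4.95 ± 0.262 FPKM in the 4 Nrp-1- libraries (SD). Cd4 was at 315.0 FPKM against 325.1 FPKM and Foxp3 at 115.8 FPKM against 108.8 FPKM, so the defining markers of the labelled cells were present in both subsets. Read counts were not used here. The relative depth read from low genes ran from 0.81 to 1.24, and in single libraries between 1.77% and 43.9% of all FPKM fell on short RNA genes. Of 17 markers of B cells, CD8 T cells, myeloid cells, natural killer cells and red cells, 15 were in the file, 14 were above 0 in some library and 4 passed the filter. Their summed level was 25.5 to 29.0 FPKM in Nrp-1+ iTreg and 22.8 to 23.8 FPKM in Nrp-1- iTreg, with the B cell gene Ms4a1 at 0 in all 8 libraries. The B cell genes Cd79b and Cd79a were at 5.09 FPKM against 4.58 FPKM and at 0.589 FPKM against 0.390 FPKM. The haemoglobin gene Hba-a1 was at 6.10 FPKM against 2.52 FPKM, and the part of other cells in the results below was not tested.

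Chromatin is built from nucleosomes, in which DNA is wrapped around an octamer of the core histones H2A, H2B, H3 and H4, while linker histone H1 binds where the DNA enters and leaves. Clustered histone genes are expressed mainly in S phase and give mRNAs that end in a stem-loop, usually without a poly(A) tail. Variant histones are mostly encoded outside the clusters, usually by polyadenylated mRNAs, and many can be placed into chromatin without DNA replication by dedicated chaperones and remodelling complexes. In T cells, activation is accompanied by broad opening of chromatin and by rapid division.

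The promoter letters are shown for H2afz and H2afv, which both encode H2A.Z, for H1fx, which had the highest ratio between the subsets, and for H3f3b, which differed little. Sequences were taken from RefSeq on GRCm38.p6, from 250 bases before to 50 bases after the start, and 8 of the 9 genes matched an entry under their current symbols, all but H2afx. Positions count from the RefSeq start as +1 and give the leftmost base of a match as printed. The start in GENCODE M21, used further below, can differ. The H3f3b window lies inside the GENCODE gene, so its positions hold for the RefSeq start only. Capitals mark the motifs searched on both strands, namely the CCAAT box, the TATA box (TATAAA), the cell cycle homology region (TTTGAA), the histone H1 box (AAACACA) and 2 E2F-type motifs, TTCCCGC and, searched in the same way, TTGGCGC.
H2afz, chr3:137864237-137864536, plus strand: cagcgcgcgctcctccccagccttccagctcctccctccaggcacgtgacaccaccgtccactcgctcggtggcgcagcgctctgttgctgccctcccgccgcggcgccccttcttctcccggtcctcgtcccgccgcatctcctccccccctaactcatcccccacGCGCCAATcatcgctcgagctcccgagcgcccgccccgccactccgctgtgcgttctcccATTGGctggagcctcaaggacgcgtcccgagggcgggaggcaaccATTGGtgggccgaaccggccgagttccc
H2afv, chr11:6444394-6444693, minus strand: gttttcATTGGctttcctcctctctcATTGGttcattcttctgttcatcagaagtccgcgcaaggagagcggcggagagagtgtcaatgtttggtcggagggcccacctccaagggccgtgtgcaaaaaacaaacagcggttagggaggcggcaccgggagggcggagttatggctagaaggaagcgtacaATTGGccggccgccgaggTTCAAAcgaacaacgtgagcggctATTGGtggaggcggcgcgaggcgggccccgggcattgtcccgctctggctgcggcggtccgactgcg
H1fx, chr6:87981433-87981732, minus strand: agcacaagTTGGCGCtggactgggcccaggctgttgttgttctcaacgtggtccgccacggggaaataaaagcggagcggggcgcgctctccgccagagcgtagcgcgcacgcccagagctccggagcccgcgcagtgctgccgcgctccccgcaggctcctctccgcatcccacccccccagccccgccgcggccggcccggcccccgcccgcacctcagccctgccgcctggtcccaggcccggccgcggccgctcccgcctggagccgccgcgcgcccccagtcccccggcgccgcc
H3f3b, chr11:116024455-116024754, minus strand: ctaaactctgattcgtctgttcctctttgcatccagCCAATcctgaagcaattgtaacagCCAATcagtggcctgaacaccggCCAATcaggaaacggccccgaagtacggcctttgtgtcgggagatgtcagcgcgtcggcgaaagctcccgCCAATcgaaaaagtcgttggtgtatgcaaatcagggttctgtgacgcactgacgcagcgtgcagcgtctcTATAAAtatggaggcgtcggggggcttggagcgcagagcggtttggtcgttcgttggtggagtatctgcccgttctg
H2afz held CCAAT at -80, -23 and +23, and a match to TTGGCGC on the other strand had its leftmost base at -83 and overlapped the first of these. H2afv held the CCAAT box 4 times, nearest to the start at -17, and TTTGAA at -41. In H1fx, TTGGCGC began with position -242 and there was no match to the CCAAT box. H3f3b held the CCAAT box 4 times and the TATA box at -27.

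Over the 8 promoters, CCAAT was present in 5 (H2afz, H2afv, H2afj, H3f3a and H3f3b), and in 37.4% of the 32851 mouse promoters of the same length. TTGGCGC was present in 2, H1fx and H2afz, and in 2.45% of all promoters. TTTGAA (17.9% of all promoters), TATAAA (13.6%) and AAACACA (7.18%, here in H3f3a) were each present in 1, and TTCCCGC (4.60%) in none. H1f0 and H2afy held none of the 6 motifs. These are matches of letters in a window, and no binding was measured.

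The levels spanned a wide range within the set, and the order of the 9 genes by mean FPKM was the same in both subsets. H2afz was highest, followed by H3f3a, H2afy, H3f3b, H2afx, H2afv, H1f0, H2afj and H1fx. In each subset the 4 libraries of each gene lay apart from those of its neighbours in that order, so no pair of neighbours overlapped. Among the 10467 genes tested, H2afz ranked 128 by mean level and H1fx ranked 8122. The summed level of the 9 genes was 2907 to 2983 FPKM in Nrp-1+ iTreg and 2175 to 2262 FPKM in Nrp-1- iTreg, 33.0% higher in the mean. In bulk samples fewer cells of a type and less RNA per cell cannot be told apart.

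**Figure D1:**
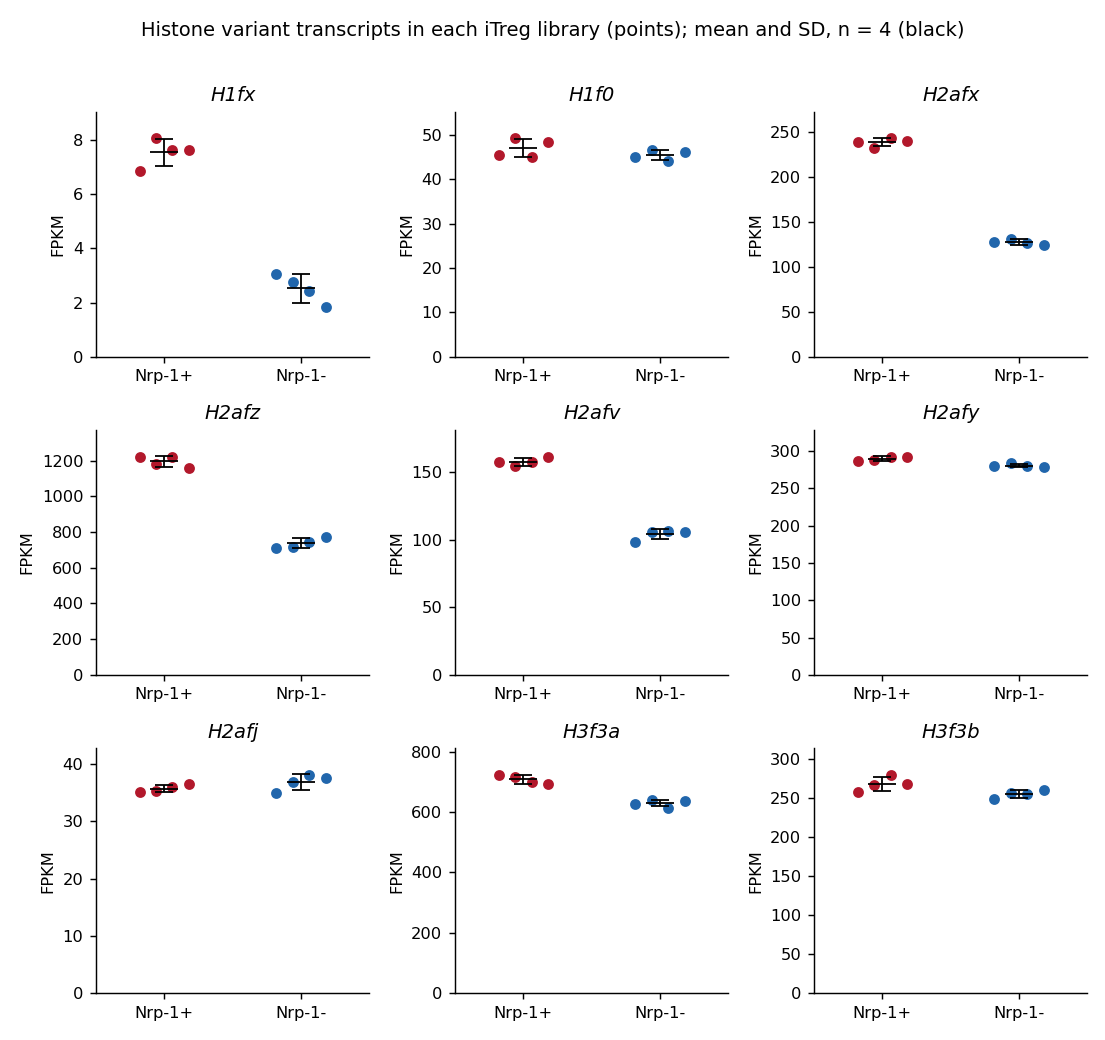
Level of each of the 9 histone variant genes, in FPKM on axes that start at 0. Points are single libraries, red for Nrp-1+ iTreg and blue for Nrp-1- iTreg, and black bars give the mean and SD of 4 libraries. The points of H1fx, H2afx, H2afz and H2afv lie far apart between the subsets, and those of H1f0, H2afj and H3f3b overlap.

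H2A.Z is an H2A variant found at active promoters and enhancers, and its 2 mouse genes encode nearly the same protein. H2afz was at 1224, 1185, 1221 and 1161 FPKM in the 4 Nrp-1+ libraries and at 709.8, 719.0, 746.7 and 771.1 FPKM in the 4 Nrp-1- libraries. Every Nrp-1+ library was above every Nrp-1- library, with means of 1198 ± 30.3 and 736.7 ± 27.8 FPKM (SD, n = 4). The ratio of means was 1.63 and the difference on the log2(FPKM + 1) scale was 0.70 with a standard error of 0.03.

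H2afv, the second H2A.Z gene, was at 157.3, 154.5, 158.0 and 161.7 FPKM in Nrp-1+ iTreg and at 98.5, 105.8, 106.4 and 106.1 FPKM in Nrp-1- iTreg. The groups did not overlap, and replicate 1 was the low library of Nrp-1- iTreg. The ratio of means was 1.51 and the log2 difference 0.59 with a standard error of 0.03. The H2A.Z transcripts of both genes summed to 1355 FPKM against 840.9 FPKM, 61.2% higher in Nrp-1+ iTreg. H2afz supplied 87.8% to 88.6% of that sum in Nrp-1+ iTreg and 87.2% to 87.9% in Nrp-1- iTreg, and these ranges overlapped. The coding sequences of the pair have 384 bases each, of which 304 are identical (79.2%), and their longest shared run is 14 bases.

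H2A.X is the H2A variant that is phosphorylated around DNA double-strand breaks. H2afx was at 238.8, 231.9, 242.4 and 239.3 FPKM in Nrp-1+ iTreg and at 127.6, 131.1, 126.6 and 124.0 FPKM in Nrp-1- iTreg. The groups lay far apart, at 238.1 ± 4.42 against 127.3 ± 2.92 FPKM (SD, n = 4), a ratio of 1.87 and a log2 difference of 0.90 with a standard error of 0.02. H2afx (chr9:44334694-44336077, plus strand, GRCm38) is a single-exon gene and was the only one of the 9 whose transcript in GENCODE M21 holds the histone stem-loop motif GGCNCTNNNNAGNGCC on the sense strand, a search chosen after the values were seen. The site is printed because it is the mark by which clustered histone mRNAs are processed. It lies at chr9:44335240-44335255, after the stop codon and 822 bases before the annotated transcript end. Whether H2afx transcripts ended at this site was not measured, and the study's methods name polyA+ selection.
H2afx stem-loop site: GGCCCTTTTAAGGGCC
The same motif was found in 43 of 67 clustered histone genes (64.2%) and in 270 of 55341 annotated genes (0.488%).

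MacroH2A1, from H2afy, carries a large macro domain and is associated with repressed chromatin. H2afy was at 287.3, 287.4, 292.7 and 292.5 FPKM in Nrp-1+ iTreg and at 279.5, 283.4, 280.5 and 278.2 FPKM in Nrp-1- iTreg. The groups did not overlap but were close, with a rise in the mean of 3.42% and a log2 difference of 0.05 with a standard error of 0.02. H2afj, which encodes H2A.J, was at 35.1 to 36.5 FPKM in Nrp-1+ iTreg and at 35.0 to 38.2 FPKM in Nrp-1- iTreg. Its groups overlapped, with means of 35.7 ± 0.655 and 36.9 ± 1.37 FPKM (SD, n = 4) and a log2 difference of -0.04 with a standard error of 0.03. With libraries scaled to equal sums over genes other than short RNA genes, the log2 difference of H2afj was 0.018, so its direction was not fixed.

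H3.3 replaces H3 in transcribed genes and at some repeats, and H3f3a and H3f3b encode the same protein from different transcripts. H3f3a was at 724.2, 716.4, 700.6 and 691.7 FPKM in Nrp-1+ iTreg and at 627.7, 639.3, 614.5 and 636.5 FPKM in Nrp-1- iTreg. The groups did not overlap, with a mean 12.5% higher in Nrp-1+ iTreg and a log2 difference of 0.17 with a standard error of 0.02. Under quantile normalization this difference was 0.16 and was no longer called. H3f3b was at 257.9, 267.1, 280.2 and 268.1 FPKM in Nrp-1+ iTreg and at 249.2, 256.6, 255.4 and 260.7 FPKM in Nrp-1- iTreg. Here the groups overlapped, with a mean 5.04% higher and a log2 difference of 0.07 with a standard error of 0.03. Without Nrp-1+ replicate 1 that difference was 0.09. The H3.3 sum was 10.3% higher in Nrp-1+ iTreg, and H3f3a supplied 71.4% to 73.7% of it against 70.6% to 71.6%. The 408 coding bases of the pair are identical at 313 positions (76.7%), with a longest shared run of 23 bases.

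Linker histones compact the fibre between nucleosomes. H1fx, which encodes H1.X, was at 6.86, 8.06, 7.64 and 7.64 FPKM in Nrp-1+ iTreg and at 3.07, 2.76, 2.45 and 1.83 FPKM in Nrp-1- iTreg. The groups did not overlap, with means of 7.55 ± 0.504 and 2.53 ± 0.530 FPKM (SD, n = 4), a ratio of 2.99 and a log2 difference of 1.29 with a standard error of 0.11. That difference ranked 43 among the 10467 genes tested, ordered from the largest rise to the largest fall. But the level of H1fx was the lowest of the 9 and its spread the widest, with a coefficient of variation of 21.0% in Nrp-1- iTreg. The pseudocount of 1 weighs on a gene this low, and with a pseudocount of 0.1 the log2 difference was 1.56. H1f0, which encodes H1.0, the linker histone known from cells that have stopped dividing, was at 45.1 to 49.2 FPKM in Nrp-1+ iTreg and at 44.2 to 46.7 FPKM in Nrp-1- iTreg. Its groups overlapped and its log2 difference was 0.05 with a standard error of 0.03. H1fx therefore made up 13.1% to 14.5% of the linker pair in Nrp-1+ iTreg and 3.81% to 6.38% in Nrp-1- iTreg.

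Across the set, 5 of the 9 genes (H1fx, H2afx, H2afz, H2afv and H3f3a) were called higher in Nrp-1+ iTreg by limma at an adjusted p under 0.05 and 0 were called lower, where 20.9% of all genes tested were called higher and 20.0% lower. The groups did not overlap for 6 of the 9, all higher in Nrp-1+ iTreg, where 20.2% of all genes tested had such a gap in that direction. Since these genes were chosen from the same comparison, nothing is read from those counts. The median log2 difference of the 9 genes was 0.17, and that of all genes tested was -0.016. In the split of called genes, 2189 were higher and 2093 lower (51.1% higher), and scaling to equal sums without short RNA genes moved this to 2746 and 971 (73.9% higher).

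**Figure D2:**
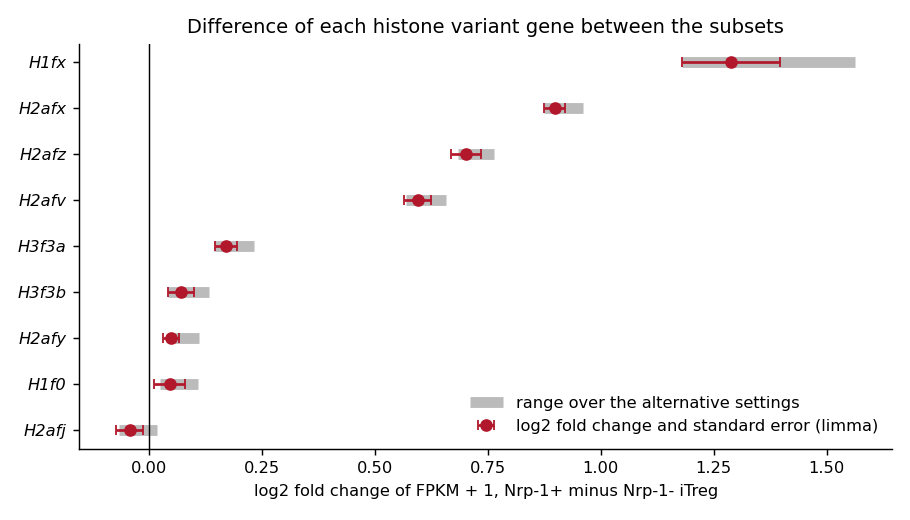
Difference of each histone variant gene, Nrp-1+ iTreg minus Nrp-1- iTreg, on the log2(FPKM + 1) scale. Red points and bars give the estimate and its standard error by limma, and grey bars give the range over the 20 alternative settings. H1fx, H2afx, H2afz and H2afv stay above 0.5 in every setting, and the bar of H2afj crosses 0.

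H2afz made up 63.0% of the rise in the summed level of the 9 genes, H2afx 15.1%, H3f3a 10.8% and H2afv 7.33%. H1fx, with the highest ratio, made up 0.686%, because its level was low. H2afz held 39.9% to 41.1% of the sum in Nrp-1+ iTreg and 32.4% to 34.1% in Nrp-1- iTreg. The share of H3f3a was 23.5% to 24.4% against 27.7% to 28.9%, and the share of H2afy 9.65% to 10.1% against 12.3% to 12.8%, although the FPKM of both genes was higher in Nrp-1+ iTreg. Without H2afz, the other 8 genes summed to 1753 FPKM against 1482 FPKM, 18.3% higher.

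**Figure D3:**
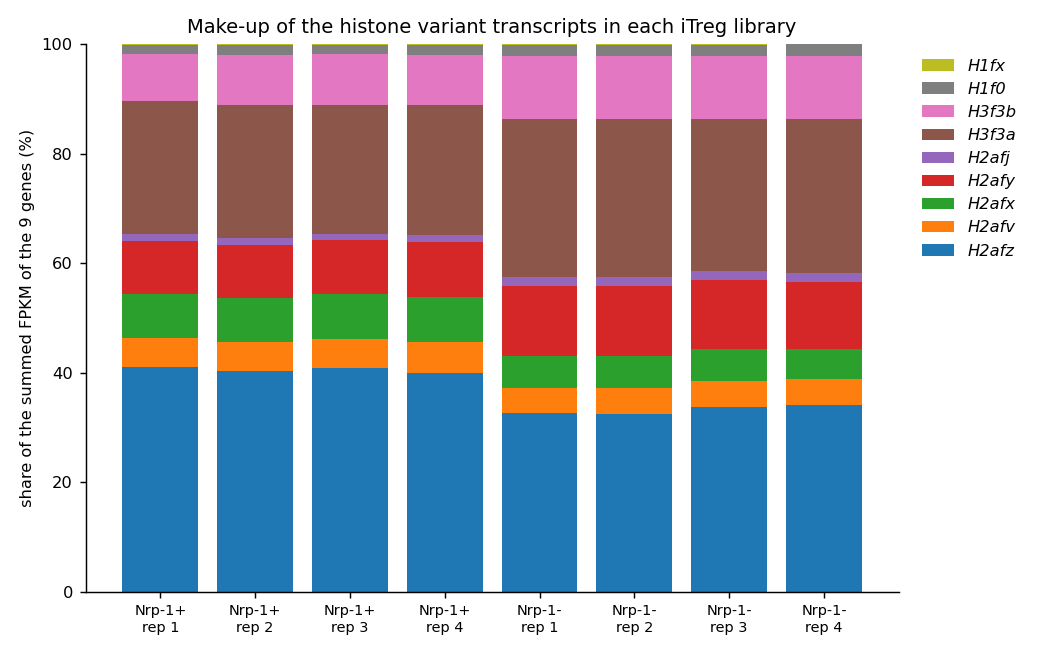
Share of each gene in the summed FPKM of the 9 histone variant genes, in percent, with 1 stacked bar for each library. H2afz, at the base, takes 39.9% to 41.1% in the 4 Nrp-1+ libraries and 32.4% to 34.1% in the 4 Nrp-1- libraries.

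Other variant genes outside the set were few. Cenpa, which encodes the centromeric H3 variant, rose from 88.5 ± 2.78 FPKM in Nrp-1- iTreg to 139.4 ± 2.25 FPKM in Nrp-1+ iTreg (SD, n = 4), a log2 difference of 0.65 (adjusted p = 6.49e-07 by limma). H2afy2, which encodes macroH2A2, was below the filter at 0.379 FPKM against 0.233 FPKM. Of 10 other variants listed, 7 were in the file and 4 of these were at 0 in all libraries.

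Of 67 clustered histone genes in the file, 17 passed the filter, of which 5 rose and 5 fell in Nrp-1+ iTreg by limma, with a median log2 difference of 0.30 that became -0.33 over those whose mean FPKM reached 5. Their summed level was 76.7 to 87.2 FPKM in Nrp-1+ iTreg and 73.4 to 82.6 FPKM in Nrp-1- iTreg, below that of H2afx alone. Without Nrp-1+ replicate 1, Nrp-1+ replicate 3 or Nrp-1- replicate 1, 2 rose, and 3 without Nrp-1+ replicate 4. Without Nrp-1+ replicate 1, 2 or 4 or Nrp-1- replicate 1 or 3, 3 fell, and the median was 0.14 without Nrp-1- replicate 1. Hist1h2bj rose from 0.902 to 3.28 FPKM (adjusted p = 0.00879 by limma) and Hist1h3c from 2.35 to 3.52 FPKM (adjusted p = 0.00463). Hist3h2a fell from 6.57 to 4.51 FPKM (adjusted p = 0.00129) and Hist1h2bc from 7.62 to 5.59 FPKM (adjusted p = 0.00987). Genes of a single class (H2A, H2B, H3 or H4) are known to be close copies of each other, which was not measured here, so values of single genes are uncertain, and the study's methods name polyA+ selection. For this list and those below, the share over all genes tested was 20.9% called higher and 20.0% called lower.

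Histone chaperones and exchange complexes carry histones to DNA and swap variants in and out of it. Of 40 such genes tested, 20 rose and 6 fell in Nrp-1+ iTreg by limma, with a median log2 difference of 0.12, and 3 fell without Nrp-1+ replicate 1 or without Nrp-1- replicate 4. Among the 8 genes of replication-coupled deposition and histone supply, 7 rose and 1 fell. The CAF-1 subunit Chaf1a was at 25.6 FPKM against 12.9 FPKM (log2 difference 0.93, adjusted p = 3.09e-07), the H3-H4 chaperone Asf1b at 92.6 FPKM against 47.6 FPKM (0.95, adjusted p = 8.59e-07) and the histone acetyltransferase Hat1 at 51.6 FPKM against 34.1 FPKM (0.58, adjusted p = 3.71e-06). The importin Ipo4 fell by 0.19 on the log2 scale (adjusted p = 0.0429 by limma), with overlapping groups, and this call was lost on leaving out any 1 of 6 libraries, all but Nrp-1+ replicate 4 and Nrp-1- replicate 1 (adjusted p from 0.0582 to 0.101), as well as under 2 other settings (up to 0.138).

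Of the 8 genes of H3.3 deposition, 2 rose and 2 fell, with a median log2 difference of 0.05. Dek, an H3.3 chaperone and chromatin protein, was at 170.5 FPKM against 113.4 FPKM (0.58, adjusted p = 8.96e-06 by limma), and Asf1a was at 14.5 FPKM against 12.5 FPKM (0.20, adjusted p = 0.0455) with overlapping groups. Daxx, which places H3.3 at repeats together with Atrx, was lower, at 30.6 FPKM against 36.3 FPKM (-0.24, adjusted p = 0.00106), as was Ubn2 (-0.15, adjusted p = 0.0303). The Asf1a call was lost on leaving out any 1 of 6 libraries, all but Nrp-1+ replicate 3 and Nrp-1- replicate 1 (adjusted p from 0.0585 to 0.110). The Ubn2 call was lost on leaving out Nrp-1+ replicate 1 or 4, or Nrp-1- replicate 1, 3 or 4 (adjusted p from 0.0522 to 0.0689). Each of these 2 calls was also lost under 5 other settings, with an adjusted p of up to 0.184 for Asf1a and 0.204 for Ubn2. Hira, the chaperone of H3.3 in transcribed genes, was at 16.4 FPKM against 15.5 FPKM (0.07, adjusted p = 0.140), and Atrx at 22.2 FPKM against 20.7 FPKM (0.10, adjusted p = 0.0559).

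Of 13 genes of H2A.Z exchange listed, 12 were in the file, so the list is not fully covered. Of these 12 genes, 2 rose, 1 fell and 9 did not pass the test, with a median log2 difference of -0.02. Anp32e, the chaperone that removes H2A.Z from nucleosomes, was at 127.9 FPKM against 81.2 FPKM (0.65, adjusted p = 1.20e-06 by limma). Actl6a, an actin-related subunit, rose by 0.24 on the log2 scale (adjusted p = 0.0017), and the remodeller Ino80 fell by 0.23 on the log2 scale (adjusted p = 0.0085). Ep400, an ATPase that loads H2A.Z, was at 17.8 FPKM against 18.6 FPKM (adjusted p = 0.225 by limma) and Vps72, an H2A.Z-binding partner, at 34.3 FPKM against 36.8 FPKM (adjusted p = 0.105).

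Of the 8 chaperones of H2A-H2B and of general use, 5 rose and 2 fell. The FACT subunits Ssrp1 and Supt16 rose by 0.30 and 0.25 on the log2 scale (adjusted p = 5.40e-05 and 8.04e-05 by limma), and Npm1 was lower at 839.2 FPKM against 960.6 FPKM (-0.20, adjusted p = 0.00695 by limma), a call that was lost under quantile normalization (-0.10, adjusted p = 0.724). The other fall was Nap1l4 (-0.087, adjusted p = 0.0377 by limma), which lost its call on leaving out any 1 of 5 libraries (adjusted p from 0.0665 to 0.0898) and under 4 other settings (up to 0.652). All 4 genes of CENP-A loading rose, with a median log2 difference of 0.66, among them Oip5, a subunit of the Mis18 complex, at 15.0 FPKM against 7.90 FPKM (adjusted p = 3.06e-05 by limma) and Hjurp, the CENP-A chaperone, at 16.4 FPKM against 11.2 FPKM (adjusted p = 4.91e-05 by limma).

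Of the 10 genes that phosphorylate H2A.X, read the mark or remove it, 4 rose and 0 fell, with a median log2 difference of 0.05. Mdc1, which binds phosphorylated H2A.X, was at 11.7 FPKM against 8.19 FPKM (0.47, adjusted p = 0.00011 by limma). The ubiquitin ligase Rnf168 rose by 0.41 on the log2 scale (adjusted p = 0.000257) and Baz1b, a kinase of H2A.X, by 0.31 (adjusted p = 5.84e-06). The kinases Atm, Atr and Prkdc were at 8.24, 4.82 and 4.52 FPKM in Nrp-1+ iTreg and at 8.54, 4.57 and 4.40 FPKM in Nrp-1- iTreg, and none of the 3 passed the test.

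**Figure D4:**
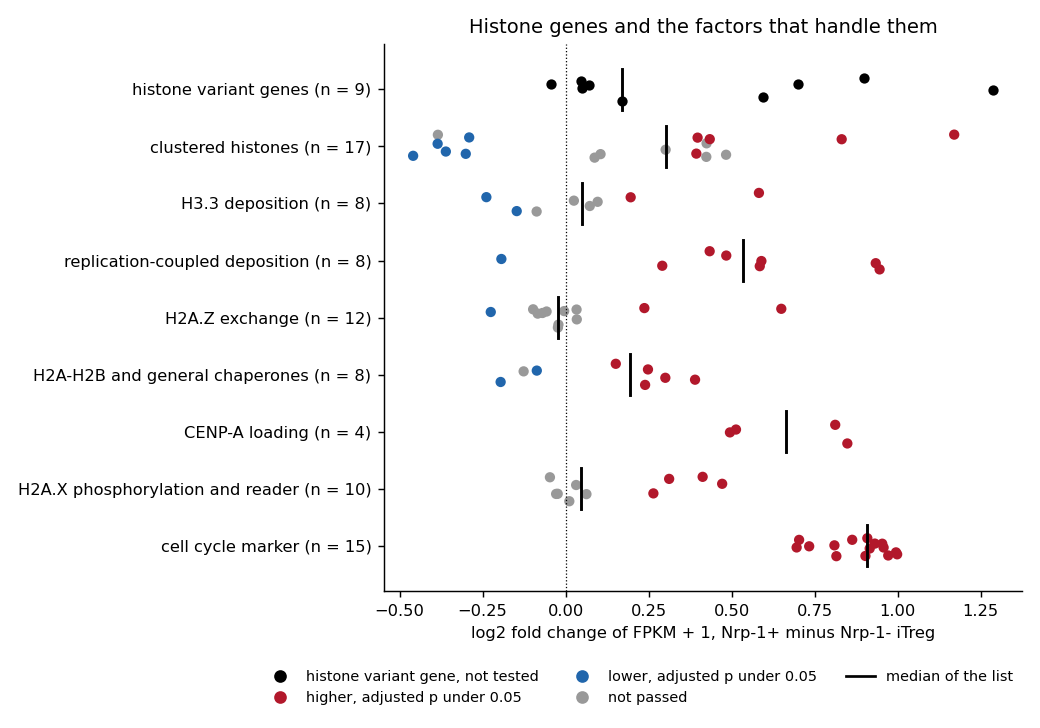
Log2 difference of each gene, Nrp-1+ iTreg minus Nrp-1- iTreg, for the 9 histone variant genes and for lists of genes that handle histones. Each point is a gene that passed the filter, and vertical bars are medians. Points lie on both sides of 0 for H3.3 deposition and H2A.Z exchange, whereas the 15 cell cycle genes all lie to the right.

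All 15 cell cycle markers listed rose in Nrp-1+ iTreg by limma, with a median log2 difference of 0.91 and a summed level of 2061 to 2115 FPKM against 1142 to 1156 FPKM. Examples are the replicative helicase subunit Mcm5 (83.0 FPKM against 41.0 FPKM), the topoisomerase Top2a (346.2 FPKM against 173.2 FPKM) and the mitotic kinase Aurkb (76.3 FPKM against 38.8 FPKM). The higher level of cell cycle genes in these libraries was known when the list was set. The part of the cell cycle in the levels of the 9 genes was not tested.

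The genes whose log2(FPKM + 1) was most like that of the 3 members with the largest differences were sought among 8132 other genes whose mean FPKM reached 5, by Pearson's r over the 8 libraries. The points are libraries of 2 subsets, so r takes in the difference between the subsets as well as the spread within them. For H2afx they were Kif2c (r = 0.999), a mitotic kinesin, Lmnb1 (0.999), a nuclear lamin, and Stil (0.999), a centriole protein. For H2afz they were Cks2 (0.999), a subunit of cyclin-dependent kinases, Cenpa (0.999) and Pcna (0.998), the replication clamp. For H1fx they were Stub1 (0.996), a ubiquitin ligase, Sept11 (0.995), a septin, and Rgs12 (0.994), a regulator of G protein signalling. Rgs12 was at 7.61 FPKM against 4.02 FPKM, at a level near that of H1fx.

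The nearest protein-coding gene that passed the filter was taken on each side of each member, before and after it in coordinates, at a distance of up to 927 kb. Of these 18 genes, 6 rose in Nrp-1+ iTreg by limma, by 0.15 to 0.58 on the log2 scale, 3 were lower and 9 did not pass the test. Over all genes tested, 20.9% were called higher and 20.0% lower. The neighbours that rose were Gcat, Dpagt1, Triobp, Ppia, Pcbd2 and Wbp11, and those lower were Galk1, Smad5 and Acbd3. Gcat, which starts 0.370 kb after H1f0, was at 7.43 ± 0.659 FPKM against 4.65 ± 0.351 FPKM (SD, n = 4), a log2 difference of 0.58 (adjusted p = 0.000297 by limma), beside the difference of 0.05 in H1f0 itself. Dnajb14, 0.753 kb after H2afz, was at 3.60 FPKM against 3.55 FPKM (0.01, adjusted p = 0.944). Dpagt1, 0.794 kb before H2afx, was at 11.1 FPKM against 9.27 FPKM (0.24, adjusted p = 0.0178). Of the neighbours called, Dpagt1, Ppia, Smad5 and Acbd3 lost their calls under 2 or 3 settings that keep all libraries. Galk1, 9.19 kb before H3f3b, was lower at 24.5 FPKM against 29.7 FPKM (-0.26, adjusted p = 0.00481).

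Gene structure and the chance of shared reads differed among the 9 genes. On GRCm38, GENCODE M21 places the H2A.Z genes H2afz at chr3:137864487-137866922 and H2afv at chr11:6427229-6444443, and the H3.3 genes H3f3a at chr1:180800832-180813943 and H3f3b at chr11:116021912-116027962. The linker genes H1fx and H1f0 lie at chr6:87980421-87981637 and chr15:79028450-79030504, H2afy at chr13:56073619-56136361 and H2afj at chr6:136808244-136810074. In the same annotation H1fx, H1f0, H2afx and H2afj are single-exon genes, and the coding parts run from 128 codons in H2afz and H2afv to 372 codons in H2afy. Shared windows were sought in the longest transcript of each gene only. Of the 50-base windows of the longest H2afz transcript, 33.2% also occur in transcripts of 4 other annotated genes, of which 0 are in the file. The share was 14.9% for H3f3a (38 other genes, 1 in the file), 8.40% for H3f3b (3 other genes, 0 in the file), 6.14% for H2afx (21 other genes, 17 in the file) and 2.24% for H2afj (21 other genes, 15 in the file), and 0 for H1fx, H1f0, H2afv and H2afy. How the authors' processing placed such fragments is not given in the sources used here, so the levels of H2afz, H3f3a, H3f3b, H2afx and H2afj carry that uncertainty, and its part in their differences was not tested.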

How the data were processed

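RNA-seq covered 8 iTreg libraries, 4 of each subset, grouped by the sample labels. The authors used the CLC Genomics Workbench for the reads and Cufflinks for quantification, and the deposited values are FPKM, with a single row for each gene symbol. The submitters' processing notes name GRCm38 and mm10, and aligner settings are not given in the sources used here. Because FPKM is already normalised, count models were not applied, and transcript length and scaling act on every value.

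The 10467 of 23361 genes whose mean FPKM reached 1 were fitted on log2(FPKM + 1) with limma 3.58.1 (lmFit, eBayes with trend) in R 4.3.3, unpaired, with Benjamini-Hochberg adjustment over all genes tested and a threshold of 0.05. The fit was tested on simulated data. Fold changes on this scale understate the change of low genes. The 9 members and the gene lists were chosen with earlier results of these data known. The text names all members, the neighbours of members, the 3 genes most like each of 3 members, and, from each list, genes among the 4 rises and 4 falls with the largest log2 difference at an adjusted p under 0.05. Hira, Atrx, Ep400, Vps72, Atm, Atr and Prkdc, which did not pass, Cd4, H2afy2, and the cell type markers Ms4a1, Cd79a, Cd79b, Cd14, Csf1r, Lyz2 and Cd8a were named for their roles after their values were seen. Single values of 2 genes under these rules are not reported here, and both were left out of the search for libraries that stand apart. Transcripts and positions came from GENCODE M21, promoters from RefSeq on GRCm38.p6. Tables were made in Python 3.11.15 (pandas 2.3.3, numpy 2.4.6, scipy 1.17.1) and plots with matplotlib 3.10.9. Alternatives were other pseudocounts, filters, scalings, a replicate block, no trend, a GC and length correction, fits without short RNA genes and each library left out. nTreg libraries were not analysed here.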

Additional observations from a re-analysis of the deposited data

Results flagged for a closer look

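Single libraries that stood apart from the other 3 of their group by Dixon's 95% criterion were searched among the named genes. Of 164 groups of 4 libraries, 5 held such a value, and chance gives about 8.2. Among the histone variant genes, H2afv in Nrp-1- iTreg replicate 1 was at 98.5 FPKM, where the other 3 libraries lay between 105.8 and 106.4 FPKM, and without that library its log2 difference was 0.57. Replicate 1 of Nrp-1- iTreg was also apart for Mdc1, at 9.07 FPKM against 7.83 to 8.01 FPKM, and for Ctla4, at 155.6 FPKM against 161.3 to 161.7 FPKM. In replicate 4 of Nrp-1+ iTreg, Hba-a1 was at 7.53 FPKM against 5.48 to 5.71 FPKM. For Sept11 it was replicate 4 of the Nrp-1- libraries, with 12.1 FPKM where the others held 13.7 to 13.8 FPKM.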

How the results depend on the processing

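Over 20 alternatives, 172 of the log2 differences of the 9 histone variant genes kept direction and side of the threshold, 6 gained a call, 1 lost it and 1 turned. These calls are given as a description, because the 9 genes were chosen from the same comparison. H2afj turned to 0.018 with equal sums without short RNA genes. H3f3a lost its call under quantile normalization, H2afy gained one under 4 alternatives and H3f3b under 2. Equal sums without short RNA genes gave 971 lower genes in all, medians of 0.23 for the 9 genes, 0.18 for chaperones, 0.098 for H2A.X readers and 0.97 for cell cycle genes, and 3 lower chaperones and 3 lower clustered histones. At a mean FPKM of at least 5 the medians were 0.17 for chaperones, 0.14 for H2A.X readers and -0.33 for clustered histones, of which 1 was higher. The clustered histone median was 0.49 and 0.42 with pseudocounts of 0.1 and 0.5 and 0.092 without a filter, and 3 were higher under quantile normalization. The cause of these shifts was not tested. With 1 library left out, lower chaperones numbered 3 to 6, clustered histones 2 to 5 higher and 3 to 5 lower with a median of 0.14 to 0.35, and genes called 1965 to 2061 higher and 1777 to 1916 lower. Among neighbours near 0, Copg1 turned to -0.00061 under quantile normalization, Dnajb14 to -0.0305 there and Purb to 0.053 with equal sums. With 1 library left out, Dnajb14 ran from -0.047 to 0.085, Purb from -0.024 to 0.014 and Atf7ip from -0.0025 to 0.057. Same-numbered libraries did not deviate together (r from -0.537 to 0.0104 over all genes tested and from -0.108 to -0.0381 without short RNA genes), so the numbers were not taken to pair the samples. With the replicate block 1931 genes were higher and 1675 lower, and of the 9 genes 5 were higher and 0 lower, as without it. The block took the adjusted p of Dpagt1 to 0.0518 by limma, and to 0.0552 together with the GC and length correction. Of the other neighbours called, Ppia lost its call under 3 settings that keep all libraries, and Smad5 and Acbd3 under 2 each, with Acbd3 losing it also on leaving out any 1 of 5 libraries (adjusted p from 0.0531 to 0.0787). Fits without short RNA genes were chosen after the data were examined. Without counts, the sampling error of low genes such as H1fx is unknown.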

Other observations

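Markers of regulatory and CD4 T cells were split between the subsets. Of 8 listed, 3 rose and 3 fell in Nrp-1+ iTreg by limma. Il2ra, the high-affinity IL-2 receptor chain, was at 265.5 FPKM against 227.9 FPKM (log2 difference 0.22, adjusted p = 0.000108), and Ikzf2, which encodes Helios, at 2.56 FPKM against 1.86 FPKM (0.31, adjusted p = 0.000853). Foxp3 differed by 0.09 on the log2 scale (adjusted p = 0.0245), a call that was lost under quantile normalization and on leaving out Nrp-1+ replicate 2 or Nrp-1- replicate 2 or 3 (adjusted p from 0.0525 to 0.0623). The inhibitory receptor Ctla4 was at 143.6 FPKM against 160.0 FPKM (-0.16, adjusted p = 0.000938), and Cd3d, a chain of the T cell receptor complex, at 436.8 FPKM against 496.4 FPKM (-0.18, adjusted p = 0.0037). The third fall was Cd3g (-0.11, adjusted p = 0.0375 by limma), which lost its call on leaving out any 1 of 6 libraries (adjusted p from 0.0702 to 0.0846) and under 4 other settings. Under quantile normalization all 3 falls lost their calls (adjusted p = 0.0518 for Ctla4, 0.304 for Cd3d and 0.696 for Cd3g by limma). Their log2 differences there were -0.17 for Ctla4, -0.15 for Cd3d and -0.063 for Cd3g.

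Among the markers of other cells, Hba-a1 (log2 difference 1.02, adjusted p = 0.00051) and the integrin gene Itgam (6.70 FPKM against 5.56 FPKM, adjusted p = 0.00136) rose and Cd8b1 (7.86 FPKM against 10.0 FPKM, adjusted p = 0.0119) fell by limma. Hba-a1 was the single red cell marker analysed here. Of other myeloid and CD8 T cell markers, Cd14 and Csf1r were at 0 in all Nrp-1+ libraries, Lyz2 at 0.0569 FPKM against 0.132 FPKM and Cd8a at 0.0571 FPKM against 0.0474 FPKM.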
